A study of Mus musculus with 54 samples.

Results

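Conjugation, often called phase II metabolism, was followed across the doses through 3 enzyme families: the glutathione S-transferases (GST), the sulfotransferases (SULT) and the UDP-glucuronosyltransferases (UGT). Genes were taken by symbol, as every gene whose name starts with Ugt, Sult or Gst plus a class letter and is followed by a number. This gave 52 of the 20162 rows of the expression table, with 25 GST, 11 SULT and 16 UGT genes. The livers came from 54 wild type male C57BL/6J mice that were all fed a high-fat diet from the age of 8 weeks. After habituation to placebo pellets, they ate the gelatin pellets of their group for 20 weeks. The pellets held di-isononyl phthalate (DINP), a plasticizer, at 1.5 mg/kg bw/d (13 mice), 15 mg/kg bw/d (13 mice) or 150 mg/kg bw/d (14 mice), and the 14 control mice received placebo pellets. RNA from the medial liver lobe was sequenced from the 3′ end of transcripts, with 1 library per mouse. There was no group on another diet.

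GST enzymes couple reactive compounds to the tripeptide glutathione, SULT enzymes add a sulfate group taken from the donor PAPS, and UGT enzymes add glucuronic acid taken from UDP-glucuronic acid. All make their substrates more soluble in water, so that they can leave the hepatocyte into bile or blood through export pumps. Hydrolysed phthalates are known substrates of glucuronidation, and the same enzymes handle bilirubin, steroids, bile acids and thyroid hormone. Transcription of many of these genes is known to be raised by the sensors of foreign compounds AHR, CAR (Nr1i3) and PXR (Nr1i2) and by NRF2 (Nfe2l2), which KEAP1 holds back.

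The values are TPM, a transcript's share of its library scaled to a fixed total, that the authors rounded and scaled between samples, a measure per transcript length. With reads from the 3′ end, division by length can change the order of genes. Levels, shares and sums of different genes below therefore hold on this scale only. On this scale the GST family was carried by Gstm1, with a mean of 1326 over all 54 mice, Gsta3 with 980 and Gstp1 with 563, which are the main mu, alpha and pi class enzymes. These genes made up 31.9%, 23.6% and 13.5% of the summed GST value. Among the SULT genes the highest levels were those of Sult2a8 (184), a bile acid sulfotransferase, Sult1d1 (141) and the phenol sulfotransferase Sult1a1 (91.4). Ugt1a8 (324), Ugt2b36 (213) and Ugt2b5 (157) led the UGT genes. The bilirubin enzyme Ugt1a1 was listed at a mean of only 4.72. Of the 52 genes, 42 had a mean of at least 1 and were tested (21 GST, 7 SULT and 14 UGT). The 10 that were not tested were Gstm2-ps1, Gsto2, Gsta5, Gstt4, Sult3a1, Sult1e1, Sult2b1, Sult2a2, Ugt2b38 and Ugt1a6b, with means from 0.0142 to 0.934.

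Some of these levels could not be assigned to 1 gene with certainty, because the reads came from transcript ends. The Ugt1a genes of chromosome 1 are spliced from separate first exons to a common set of last exons. In GENCODE M21 annotation, 100% of the 100-base windows in the last 500 bases of Ugt1a1, Ugt1a5, Ugt1a6a, Ugt1a6b and Ugt1a8 also occurred in another transcript of the locus. The split of the Ugt1a signal between these genes was therefore an estimate of the authors' quantification. Of the windows of Gstp1, 67.3% were shared with Gstp2 or the pseudogene Gstp-ps, and 74.8% of those of Gsta1 were shared with the gene model Gm3776. No shared window was found for Gsta3, Gsta4, Gstm7, Gstt2, Gstp3, Sult1a1, Sult1c2, Sult2a8, Ugt2b36, Ugt3a1 or Ugt3a2. Gsta13 and Gsta5 were not matched to a position.

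Promoter sequence was read for the genes on which the results below turn, from 250 bases before to 50 bases after the start of transcription (RefSeq, GRCm38.p6). It was available for 43 of the 52 genes (54 promoters). Both strands were searched for 3 motifs: TGACNNNGC, the core of the antioxidant response element that NRF2 binds; GCGTG, the core of the element that AHR binds; and AGGTCA, which nuclear receptors bind. They occurred in 12.4%, 32.4% and 16.3% of the 32851 promoters of the table, and in promoters of 3, 11 and 11 of the 43 genes. The percentages count promoters, while a gene was counted if any of its promoters held the motif, so the 2 measures cannot be compared directly. A match is a description of the letters and no evidence of binding. Gsta3 and Gstm7 are shown because a promoter of each held the antioxidant core. They were also called in opposite directions at the middle dose in the fit of all mice. Gstm5 held this core too (TGACCACGC at -42 from the start site), was called against control at no dose and is not shown. Gstm7 has 2 listed start sites, and the promoter of start site 1 (chr3:107931768-107932067) held none of the 3 motifs. Gsta1 and Gstm3 are shown because they led in the same mice. Ugt1a1 and Ugt1a8 are shown because they start at different promoters and share their last exons. Capitals mark the motif, and a sequence with no capitals held none of the 3.
Gsta3, chr1:21240335-21240634, plus strand: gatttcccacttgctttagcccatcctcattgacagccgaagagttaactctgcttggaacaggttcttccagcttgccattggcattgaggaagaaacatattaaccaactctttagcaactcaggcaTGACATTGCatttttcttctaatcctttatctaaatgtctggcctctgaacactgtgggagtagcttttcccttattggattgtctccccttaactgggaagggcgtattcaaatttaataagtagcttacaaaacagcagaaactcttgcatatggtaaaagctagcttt
Gstm7 (start site 2), chr3:107931565-107931864, minus strand: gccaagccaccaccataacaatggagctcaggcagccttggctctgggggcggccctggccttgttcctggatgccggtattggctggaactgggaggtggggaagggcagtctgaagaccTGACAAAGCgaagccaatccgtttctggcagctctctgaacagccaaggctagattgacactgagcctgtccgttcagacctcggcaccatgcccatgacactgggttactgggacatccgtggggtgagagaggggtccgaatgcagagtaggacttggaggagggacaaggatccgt
Gsta1, chr9:78230419-78230718, plus strand: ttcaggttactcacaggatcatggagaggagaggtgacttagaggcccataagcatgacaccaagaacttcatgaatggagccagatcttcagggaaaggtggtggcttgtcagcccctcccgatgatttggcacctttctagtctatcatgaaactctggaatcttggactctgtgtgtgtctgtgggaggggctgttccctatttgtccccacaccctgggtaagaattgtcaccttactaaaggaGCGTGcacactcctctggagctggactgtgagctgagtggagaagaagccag
Gstm3, chr3:107969125-107969424, minus strand: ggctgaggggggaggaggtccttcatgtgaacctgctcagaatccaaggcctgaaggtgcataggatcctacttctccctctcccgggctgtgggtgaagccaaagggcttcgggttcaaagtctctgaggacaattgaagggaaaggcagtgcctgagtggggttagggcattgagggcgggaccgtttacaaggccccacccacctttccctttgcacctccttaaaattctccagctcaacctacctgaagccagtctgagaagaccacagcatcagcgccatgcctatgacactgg
Ugt1a1, chr1:88211709-88212008, plus strand: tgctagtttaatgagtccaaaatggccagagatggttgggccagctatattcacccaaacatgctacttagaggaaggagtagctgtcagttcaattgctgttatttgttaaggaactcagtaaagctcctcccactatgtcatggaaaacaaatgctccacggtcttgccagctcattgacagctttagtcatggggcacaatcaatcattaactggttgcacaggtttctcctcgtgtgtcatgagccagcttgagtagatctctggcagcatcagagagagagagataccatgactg
Ugt1a8, chr1:88087578-88087877, plus strand: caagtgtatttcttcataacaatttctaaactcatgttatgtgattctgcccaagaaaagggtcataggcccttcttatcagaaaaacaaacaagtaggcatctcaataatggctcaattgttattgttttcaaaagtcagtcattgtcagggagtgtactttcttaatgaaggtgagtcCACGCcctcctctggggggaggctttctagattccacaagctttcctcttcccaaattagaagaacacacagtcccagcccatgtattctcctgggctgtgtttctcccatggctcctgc
The antioxidant core read TGACATTGC at position -121 of Gsta3 and TGACAAAGC at position -129 of Gstm7, counted from the start site. The AHR core stood at -2 in Gsta1 and, on the opposite strand, at -70 in Ugt1a8. Promoters of Gstt2, Gsta4 and Ugt3a2 are not shown.

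Some libraries stood apart from the rest of their groups. On the first principal component of the 11389 tested genes outside the 3 families, which held 13.7% of the variance, 8 libraries lay beyond the largest gap (25.6 and above, where all others were at 8.33 or below). They were mice 4 to 9 of the 13 at 15 mg/kg bw/d, control mouse 1 and mouse 10 at 150 mg/kg bw/d. The labels name no batch that sets them apart, and their cause was not tested. The summed values of the 6 mice at 15 mg/kg bw/d (849928 to 1076440) overlapped with those of the other 7 (917586 to 990916). Of the 42 tested genes of the families, 5 did not overlap between these 6 and the other 7 mice of the dose. The share of all tested genes that did so was not counted, and the mice were picked by expression. The 5 genes can therefore not be read as a trait of the families, and how their share compares with that of all genes is not known. Gstk1, a mitochondrial kappa class enzyme, was at 31.0 to 52.0 in the 6 mice and at 12.6 to 22.4 in the others. Ugt2b35 was at 20.9 to 33.2 against 11.3 to 18.4, Gstm7 at 20.4 to 23.9 against 28.0 to 47.8, Sult1d1 at 50.5 to 136 against 157 to 230 and Ugt1a6a at 1.10 to 2.98 against 3.02 to 5.80. The related glutathione transferases outside the naming rule (9 genes such as the microsomal Mgst1) summed to 6132 to 8146 in the 6 mice, to 2536 to 3448 in the other 7 and to 2426 to 5776 in control, where 5776 was control mouse 1. None of the 6 tested genes of that list was called at 15 mg/kg bw/d by limma, and 1 had an unadjusted p under 0.05. Because the mice were picked from expression values, no test was made between them, and each result below is also given without the 8 libraries where this changes it.

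Each dose was compared with control in limma on log2(value + 1), with p-values adjusted by Benjamini-Hochberg over all 11431 rows tested, and genes with adjusted p below 0.05 were called. The 3 comparisons share the 14 control mice. At 1.5 mg/kg bw/d, 2 of the 42 genes were higher and 0 were lower, where 0.674% and 0.525% of all genes were called. At 15 mg/kg bw/d, 7 were higher and 1 was lower, against 7.57% and 6.61% of all genes. At 150 mg/kg bw/d, 1 was higher and 1 was lower, against 1.49% and 0.682%. With a log2 fold change beyond 0.5 asked for as well, 1, 3 and 2 of the 42 genes remained, and the shares of all genes were 0.367%, 3.72% and 0.84%. The median log2 fold change of the 42 genes was -0.02, 0.11 and 0.05 at the 3 doses, while the medians over all tested genes were 0.00, -0.00 and -0.01. At the middle dose 32 of 42 genes lay above 0, at the lowest 19 and at the highest 24. Without the 8 libraries, the counts were 2 higher and 0 lower at the lowest dose, 3 and 1 at the middle and 3 and 1 at the highest, where 1.3% and 1.22%, 2.76% and 2.55%, and 2.33% and 1.29% of all genes were called. At the middle dose 3 of the 8 genes were called in both fits, and 27 of 42 genes lay above 0. The plot of fold changes gives each gene. Of the UGT genes, 9, 11 and 11 of 14 lay above 0 at the 3 doses, and of the GST genes 6, 16 and 10 of 21.

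**Figure D1:**
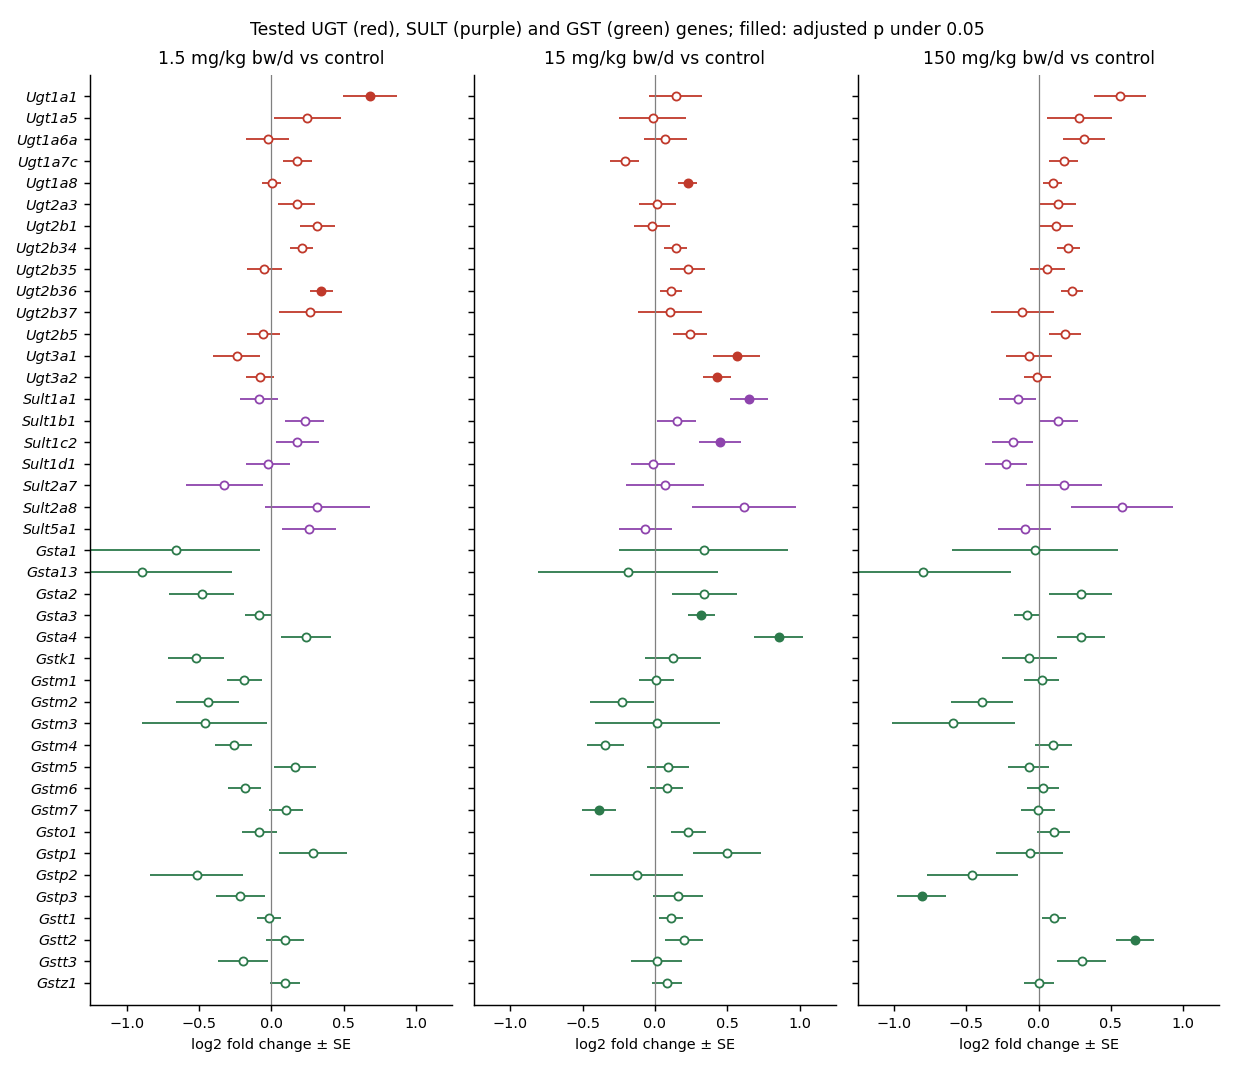
Log2 fold change ± SE (limma) of the 42 tested UGT (red), SULT (purple) and GST (green) genes in each of the 3 dose groups against control, with filled points for an adjusted p under 0.05. There are 2 filled points at the lowest dose, both UGT genes, 8 at the middle dose from all families, and 2 at the highest dose, the GST genes Gstt2 and Gstp3.

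At the lowest dose the called genes were Ugt2b36 and Ugt1a1. Ugt2b36 (chr5:87065927-87092555) belongs to the UGT2B cluster, whose enzymes glucuronidate steroids and bile acids. Its values were 135 to 213 (median 191) in control mice and 185 to 299 (median 235) at 1.5 mg/kg bw/d. The ranges overlapped, but 10 of 13 treated mice lay above the highest control mouse. The group means were 188 ± 20.7 (SD, n = 14) and 240 ± 32.2 (SD, n = 13), a log2 fold change of 0.35 ± 0.08 (SE, adjusted p = 0.0128), and the call held in every alternative run. Ugt1a1 (chr1:88211959-88218997), which conjugates bilirubin, ranged from 0.764 to 5.93 (median 3.30) in control and from 3.97 to 8.38 (median 6.07) at 1.5 mg/kg bw/d. All 13 treated mice were above the control median and 7 above the highest control mouse. Its log2 fold change was 0.68 ± 0.18 (SE, adjusted p = 0.0460). This call was lost when any of 19 of the 27 mice was left out, with adjusted p up to 0.0922, and it stood only without control mouse 4, 5, 7, 9, 13 or 14 or mouse 4 or 6 of the treated group. It rests on low values and on the split of the Ugt1a signal.

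The neighbouring genes did not pass the test at this dose. Ugt2b1 had a mean of 112 ± 27.2 (SD, n = 13) at 1.5 mg/kg bw/d and of 88.2 ± 12.9 (SD, n = 14) in control (log2 fold change 0.32 ± 0.12 SE, limma adjusted p = 0.230). Ugt1a8, to which 94.7% ± 0.916 (SD, n = 14) of the summed Ugt1a value was assigned in control mice, had a log2 fold change of 0.00 with a 95% interval from -0.13 to 0.14. Ugt1a1 made up 1.08% ± 0.492 (SD) of that sum in control and 1.82% ± 0.463 (SD) at 1.5 mg/kg bw/d. The Ugt1a sum itself was 324 ± 39.2 and 327 ± 26.7. No SULT or GST gene was called at 1.5 mg/kg bw/d by limma, and 0 SULT and 4 GST genes (Gsta2, Gstk1, Gstm2 and Gstm4, all with negative log2 fold changes) had an unadjusted p under 0.05. The smallest of these was that of Gstk1, chosen here after its values were seen. It was at 8.34 to 21.9 (median 18.1) against 13.8 to 44.7 (median 24.1) in control, so that all 13 treated mice were below the control median (log2 fold change -0.52 ± 0.19 SE, adjusted p = 0.200). Gstk1 was called lower at this dose when the 6 mice at 15 mg/kg bw/d that stood apart were left out of the fit. It was not called without all 8 libraries.

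**Figure D2:**
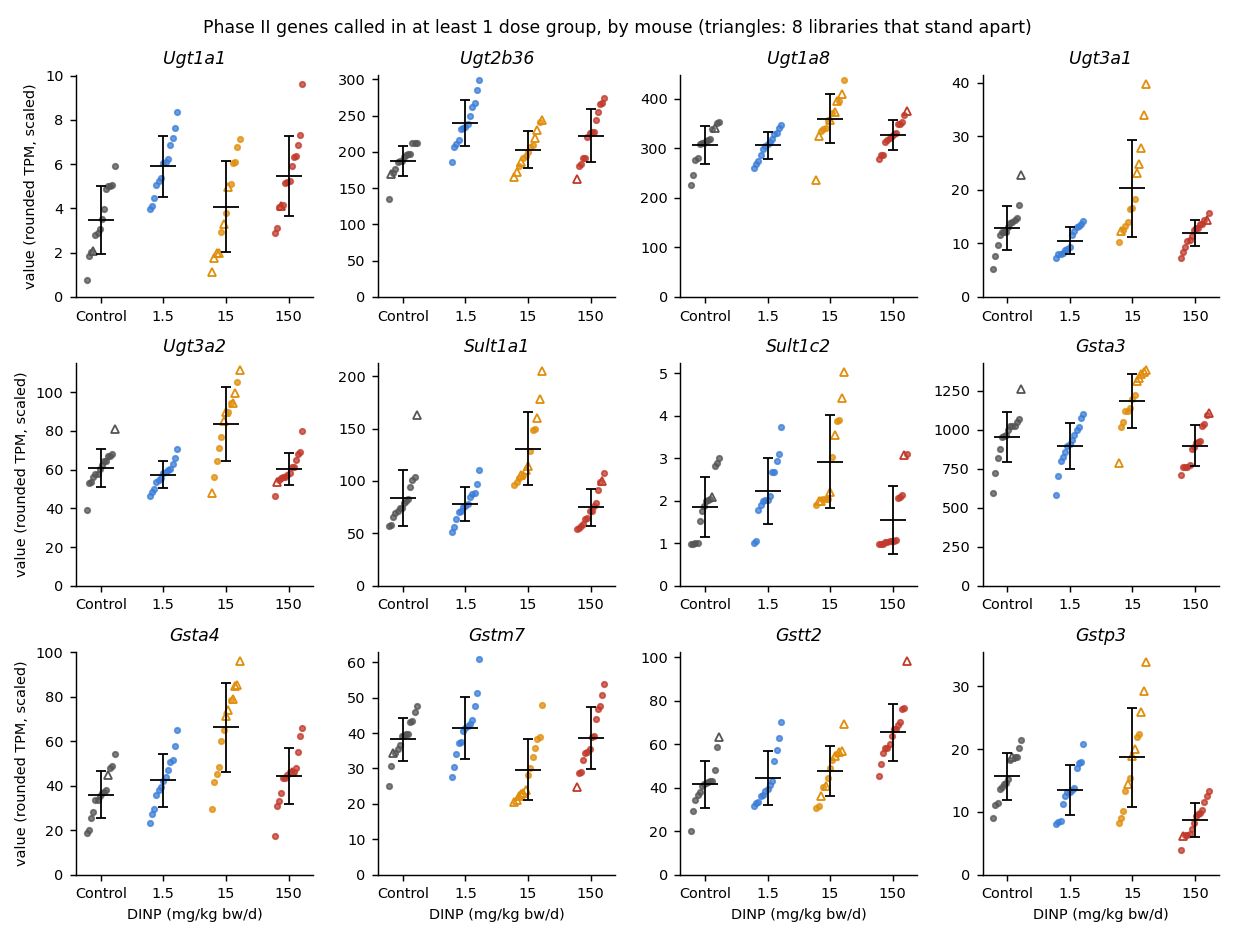
Values of the 12 genes called against control in at least 1 dose group (vertical axes, TPM rounded and scaled by the authors) by DINP dose, with 1 point per mouse, bars for the mean ± SD and triangles for the 8 libraries that stood apart. Ugt1a1 and Ugt2b36 stood highest at 1.5 mg/kg bw/d, 7 genes from Ugt1a8 to Gsta4 had the highest mean and Gstm7 the lowest at 15 mg/kg bw/d, where Gstm7 lay at 20.4 to 23.9 in the 6 triangles, and Gstt2 was highest and Gstp3 lowest at 150 mg/kg bw/d.

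At 15 mg/kg bw/d the UGT genes that were called higher were other ones: Ugt3a2, Ugt3a1 and Ugt1a8. UGT3A enzymes use sugars other than glucuronic acid. Ugt3a2 (chr15:9335550-9370955) was at 39.0 to 81.0 (median 61.4) in control and at 47.9 to 111 (median 89.9) at 15 mg/kg bw/d. The ranges overlapped, and 8 of 13 treated mice were above the highest control mouse. The log2 fold change was 0.43 ± 0.10 (SE, adjusted p = 0.00132), and 0.40 ± 0.10 (SE, adjusted p = 0.00979) without the 8 libraries. Ugt3a1 (chr15:9276888-9315032), its neighbour on the chromosome, ranged from 5.30 to 22.9 (median 12.6) in control and from 10.2 to 39.8 (median 16.5) in treated mice. It had a log2 fold change of 0.56 ± 0.16 (SE, adjusted p = 0.0122), which gave an adjusted p of 0.0596 when only these 2 groups were fitted. Leaving out the 8 libraries, it was 0.26 ± 0.15 (SE, adjusted p = 0.349) and was not called. Ugt1a8 (chr1:88087813-88219004), a UGT1A form whose level rests on the split of the shared exons, was at 226 to 352 (median 312) in control and at 237 to 438 (median 357) at this dose. Its shift was small, at 0.23 ± 0.07 (SE, adjusted p = 0.0182), and 8 of 13 mice exceeded the control range. The adjusted p of Ugt1a8 was 0.154 after quantile normalization, with a log2 fold change of 0.13, and 0.0762 in the fit of 2 groups alone. Its log2 fold change without the 8 libraries was 0.28 ± 0.07 (SE, adjusted p = 0.0132). Ugt1a1 was not called at this dose, with a log2 fold change of 0.14 (limma adjusted p = 0.664). Over the alternative fits this value ran from 0.05 to 0.56, with limma adjusted p of 0.0744 or more. The 6 mice that stood apart were at 1.11 to 4.97 for Ugt1a1. The other 7 were at 2.92 to 7.16 (median 6.04), where the control median was 3.30.

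The SULT genes called at 15 mg/kg bw/d were Sult1a1 and Sult1c2. Sult1a1 (chr7:126672865-126676432), the main phenol sulfotransferase, ranged from 57.3 to 163 (median 76.4) in control and from 96.2 to 205 (median 114) in treated mice. All 13 treated mice were above the control median. The means were 83.9 ± 26.9 (SD, n = 14) and 131 ± 34.4 (SD, n = 13), with a log2 fold change of 0.65 ± 0.13 (SE, adjusted p = 0.000418), and the call held under every alternative run (0.60 ± 0.13 SE, adjusted p = 0.00452 without the 8 libraries). Sult1c2 (chr17:53829637-53846339) was near the floor of the table, at 0.977 to 3.01 (median 1.93) in control and at 1.90 to 5.02 (median 2.19) at 15 mg/kg bw/d. Its log2 fold change of 0.45 ± 0.15 (SE, adjusted p = 0.0292) lost the call without control mouse 4, 13 or 14 or mouse 2, 5 or 8 of the treated group (adjusted p 0.0504 to 0.0710), without a filter (0.0534), with array quality weights (0.0807) and without the 8 libraries (0.39, adjusted p = 0.183). The family's most abundant gene, Sult2a8, did not pass, with a log2 fold change of 0.62 ± 0.36 (SE, adjusted p = 0.270). Its values ran from 9.94 to 236 (median 151) in control and from 12.4 to 496 (median 204) at this dose, and 12 of 13 treated mice were above the control median. The mouse at 12.4 was mouse 7 of this group, and without it the log2 fold change of Sult2a8 was 0.93 ± 0.30 (SE, adjusted p = 0.0297). Sult1d1, a phenol and catecholamine sulfotransferase, had a log2 fold change of -0.01 with a 95% interval from -0.32 to 0.29, and of 0.38 (adjusted p = 0.0966) without the 8 libraries.

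Of the GST genes, Gsta3, Gsta4 and Gstm7 were called at the middle dose, and the other 3 tested alpha class genes, Gsta1, Gsta2 and Gsta13, were not. Gsta4 (chr9:78182774-78209349), whose enzyme removes 4-hydroxynonenal, a product of lipid peroxidation, was at 18.7 to 54.4 (median 35.8) in control and at 29.5 to 96.2 (median 71.5) at 15 mg/kg bw/d. Of 13 treated mice, 9 lay above every control mouse. The means were 35.9 ± 10.6 (SD, n = 14) and 66.2 ± 20.0 (SD, n = 13), and the log2 fold change of 0.86 ± 0.17 (SE, adjusted p = 0.000382) was the largest among the called genes. The 6 mice that stood apart were at 71.5 to 96.2 and the other 7 at 29.5 to 78.8 (median 48.3), and without the 8 libraries the log2 fold change was 0.57 ± 0.21 (SE, adjusted p = 0.0951). Gsta3 (chr1:21240589-21265661), the most abundant alpha class gene, ranged from 591 to 1259 (median 984) in control and from 789 to 1384 (median 1195) in treated mice. Its log2 fold change was 0.32 ± 0.09 (SE, adjusted p = 0.0144), and 12 of 13 treated mice were above the control median. It was 0.29 ± 0.10 (SE, adjusted p = 0.0888) without the 8 libraries. Gstm7 (chr3:107926334-107931817), of the mu class, was called lower. It was at 25.1 to 47.7 (median 39.3) in control and at 20.4 to 47.8 (median 28.0) at 15 mg/kg bw/d, with 12 of 13 treated mice below the control median. The log2 fold change was -0.39 ± 0.12 (SE, adjusted p = 0.0216), and it was not called with array quality weights (-0.28, adjusted p = 0.130). The 6 lowest values, 20.4 to 23.9, were those of the mice that stood apart, the other 7 overlapped with control, and without the 8 libraries the log2 fold change was -0.09 ± 0.13 (SE, adjusted p = 0.734). Gsta3, Gsta4, Gstm7, Sult1c2 and Ugt3a1 thus lost their calls without these libraries, while Sult1a1, Ugt1a8 and Ugt3a2 remained called. Gstm4, of the mu class, was then called lower (-0.49 ± 0.15 SE, adjusted p = 0.0351).

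Ugt2b5, among the 3 UGT genes of the highest mean level, did not pass the test. It was at 87.9 to 190 (median 145) in control and at 118 to 266 (median 174) at 15 mg/kg bw/d. Its log2 fold change of 0.24 had a 95% interval from 0.01 to 0.47 (limma adjusted p = 0.162). The mice of this dose that stood apart were at 158 to 266, and the others at 118 to 186 (median 148). Over the alternative fits the log2 fold change of Ugt2b5 at this dose ran from 0.01 to 0.29, with limma adjusted p from 0.0808 to 0.979. At the lowest and highest doses its log2 fold changes were -0.05 and 0.18. The abundant GST genes Gstm1 and Gstp1 were not called at this dose. Gstm1 had values of 1017 to 1791 in control and of 1012 to 2293 at 15 mg/kg bw/d, and its log2 fold change of 0.01 had a 95% interval from -0.23 to 0.25 (-0.20 without the 8 libraries, adjusted p = 0.395). Gstp1 varied from mouse to mouse: 322 to 752 (median 435) in control, 251 to 1725 (median 523) at 1.5 mg/kg bw/d, 312 to 1652 (median 622) at 15 mg/kg bw/d and 216 to 684 (median 496) at 150 mg/kg bw/d. At 15 mg/kg bw/d 5 of 13 mice exceeded the control range, and the log2 fold change was 0.50 ± 0.23 (SE, adjusted p = 0.156). For Gstp1 the mice of this dose that stood apart were at 544 to 1652, and the others at 312 to 924 (median 478). Over the alternative fits the log2 fold change of Gstp1 at this dose ran from 0.15 to 0.58, with limma adjusted p from 0.0830 to 0.821. Leaving out mouse 7 of this dose, the number of called genes of the 3 families was 10 instead of 8, with Sult2a8 higher and the mu class gene Gstm4 lower (-0.42 ± 0.12 SE, adjusted p = 0.0134) as the additional ones.

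At 150 mg/kg bw/d the called genes were Gstt2 and Gstp3, which moved in opposite directions. Gstt2 (chr10:75831114-75837424) encodes a theta class enzyme. It was at 20.3 to 63.4 (median 41.9) in control and at 45.5 to 98.6 (median 65.3) at 150 mg/kg bw/d. All 14 treated mice were above the control median, and 8 were above the highest control mouse. The means were 41.6 ± 10.8 and 65.5 ± 13.1 (SD, n = 14 each), with a log2 fold change of 0.67 ± 0.13 (SE, adjusted p = 0.00109). Gstp3 (chr19:4057477-4059569), a pi class gene beside Gstp1, was at 9.04 to 21.5 (median 14.9) in control and at 3.94 to 13.3 (median 8.83) in treated mice. All 14 treated mice were below the control median, and 7 were below the lowest control mouse. It fell by 0.81 on the log2 scale (SE 0.17, adjusted p = 0.00266). Both calls held under all alternatives and with any mouse left out. The more abundant Gstp1 had a log2 fold change of -0.06 with a 95% interval from -0.52 to 0.40, and Gstt1, the other main theta class gene, had 0.11 with an interval from -0.06 to 0.27.

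The UGT genes that were higher at the lowest dose had medians between those of control and of the lowest dose here. Ugt1a1 was at 2.91 to 9.61 (median 5.21) and had a log2 fold change against control of 0.56 with a 95% interval from 0.20 to 0.93 (limma adjusted p = 0.0872). Ugt2b36 was at 162 to 274 (median 227), with 0.23 and an interval from 0.08 to 0.38 (limma adjusted p = 0.0938). Neither passed the threshold at this dose, although Ugt2b36 did with array quality weights (adjusted p = 0.0274) and without mouse 10 of this group (adjusted p = 0.0402). Both were called without the 8 libraries, which include that mouse (adjusted p = 0.0458 for Ugt1a1 and 0.0360 for Ugt2b36). In the direct comparison of the lowest with the highest dose, the difference of Ugt1a1 was 0.12 with an interval from -0.25 to 0.49, and that of Ugt2b36 was 0.11 with an interval from -0.04 to 0.27.

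The doses were also compared with each other, since a gene called at 1 dose and not at another need not differ between them. Genes named here that were not called against control were chosen after their values were seen. Between 15 and 150 mg/kg bw/d, 7 of the 42 genes were higher at the middle dose and 4 were lower, where 10.1% and 9.85% of all genes were called. Sult1a1 differed by 0.79 ± 0.13 (SE, adjusted p = 1.47e-05), Gstp3 by 0.97 ± 0.17 (SE, adjusted p = 4.42e-05) and Ugt3a2 by 0.44 ± 0.10 (SE, adjusted p = 0.000672). Gsta3, Gsta4, Sult1c2 and Ugt3a1 were also higher, by 0.40 to 0.63. Gstt2, Gstm4, Gstm7 and Ugt1a7c were lower at the middle dose, by log2 differences of -0.47, -0.45, -0.39 and -0.38. Ugt1a8 differed by 0.13 with a 95% interval from -0.01 to 0.26. With array quality weights Gsta4 (0.46, adjusted p = 0.0908) and Gstm7 (-0.29, adjusted p = 0.0979) were not called. Without the 8 libraries 6 genes were higher and 2 lower, against 3.98% and 4.36% of all genes. Gsta4, Gstm7, Ugt1a7c and Ugt3a1 were no longer called (adjusted p = 0.513, 0.616, 0.138 and 0.280), and Sult1d1 was (0.56 ± 0.14 SE, adjusted p = 0.00646).

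Between 1.5 and 15 mg/kg bw/d, 5 genes were higher at the lowest dose and 8 were lower, against 10.5% and 10.9% of all genes. The higher genes were Gstm7 (0.49) and the UGT genes Ugt1a1 (0.54), Ugt1a7c (0.39), Ugt2b1 (0.34) and Ugt2b36 (0.24). The lower genes were Gsta2, Gsta3, Gsta4, Gstk1, Sult1a1, Ugt1a8, Ugt3a1 and Ugt3a2, with log2 differences from -0.82 to -0.22. Without the 8 libraries 0 genes were higher by limma and 4 were lower, against 2.36% and 2.69% of all genes, and 12 of 42 had an unadjusted p under 0.05 in either direction. The 4 were Gsta3, Sult1a1, Ugt1a8 and Ugt3a2, of which Gsta3 was not called when the 6 mice at 15 mg/kg bw/d alone were left out (adjusted p = 0.0582). The difference of Ugt1a1 was then 0.12 ± 0.20 (SE, adjusted p = 0.802), and that of Ugt2b36 was 0.23 ± 0.09 (SE, adjusted p = 0.114). In the fit of all mice, Ugt1a8 was not called after quantile normalization (-0.13, adjusted p = 0.134), nor Gsta4 with array quality weights (-0.51, adjusted p = 0.0620), nor Ugt1a1 with these weights (0.39, adjusted p = 0.163) or without a filter (adjusted p = 0.0577). The difference of Ugt1a1 lost its call without mouse 1, 9 or 10 of the lowest dose or mouse 5, 7, 8 or 9 of the middle dose (adjusted p 0.0504 to 0.0823), and that of Ugt2b36 without mouse 7 of the lowest dose (adjusted p = 0.0513).

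Between the lowest and the highest dose, 1 gene was higher at the lowest dose, Gstp3 (0.59 ± 0.17 SE, adjusted p = 0.0309), against 2.06% of all genes. The genes that were lower were Gstt2 (-0.57 ± 0.13 SE, adjusted p = 0.00533) and Gsta2 (-0.77 ± 0.22 SE, adjusted p = 0.0331), against 2.55% of all genes. Gsta2 was at 26.1 to 107 (median 58.5) at the lowest dose and at 48.1 to 129 (median 89.0) at the highest. The count was 1 without mouse 5 or 6 of the lowest dose. Gstp3 lost its call without mouse 5, 6 or 9 of the lowest dose or mouse 1, 2, 7 or 10 of the highest, and without a filter (adjusted p = 0.0535). In the fit without the 8 libraries 1 gene was higher and 3 were lower, against 3.05% and 3.83% of all genes, with Gstm4 (-0.39 ± 0.12 SE, adjusted p = 0.0389) as the additional one.

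The other 30 tested genes were called against control at no dose. Their log2 fold changes ran from -0.89 to 0.32 at the lowest dose, from -0.34 to 0.62 at the middle and from -0.80 to 0.58 at the highest. The ends of these ranges were Gsta13, an alpha class gene, Gstm4 and Sult2a8. Within 0.25 of 0 lay 16, 25 and 21 of the 30 genes, and 6, 4 and 2 had an unadjusted p under 0.05.

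Summed over each family, the mean levels were highest in the middle dose group, for GST through the 6 mice that stood apart. The summed GST value was 4023 ± 354 in control, 3950 ± 373 at 1.5, 4673 ± 836 at 15 and 3998 ± 337 at 150 mg/kg bw/d (SD, n = 14, 13, 13 and 14). Within it the alpha class sum was 1125 ± 119, 1039 ± 138, 1432 ± 174 and 1066 ± 128, and all 13 mice of the middle dose were above the control median. In the other 7 mice of this dose the GST sum was 4061 ± 247 and the alpha class sum 1297 ± 92.1 (SD), where the 6 mice were at 4496 to 6089 and 1441 to 1685. The summed SULT value was 416 ± 103, 439 ± 108, 557 ± 158 and 429 ± 73.5. The UGT sum was 1033 ± 118, 1129 ± 107, 1176 ± 152 and 1142 ± 114, so that all 3 dose groups had a higher mean than control. The ranges of all groups overlapped, as the plot of family sums shows. These sums are a description and were not tested, and a few abundant genes set them.

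**Figure D3:**
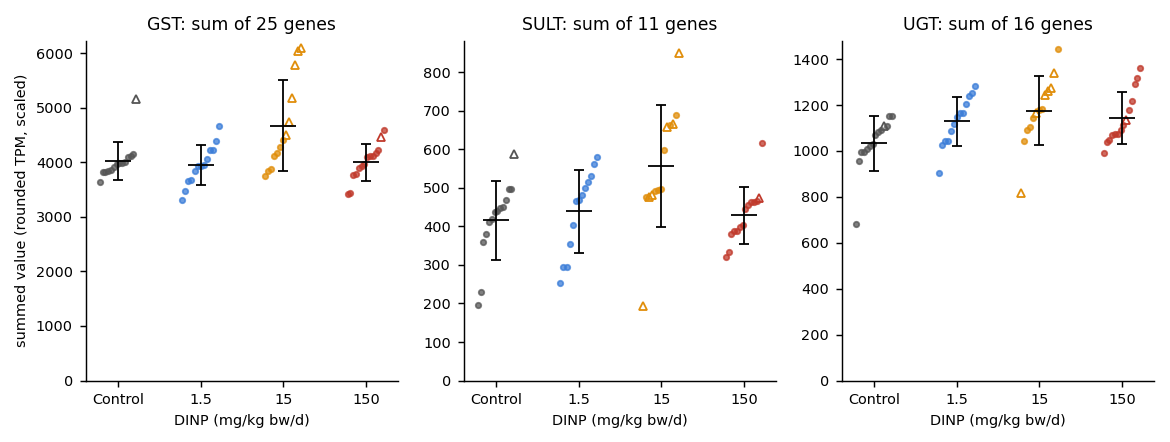
Summed value of the 25 GST, 11 SULT and 16 UGT genes (vertical axes, TPM rounded and scaled by the authors) by DINP dose, with 1 point per mouse, bars for the mean ± SD and triangles for the 8 libraries that stood apart. At 15 mg/kg bw/d the GST sum reached 6089 and the SULT sum 849, where the highest control mice were at 5155 and 589, and every dose group overlapped with control.

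Gsta1, an alpha class gene, and Gstm3, of the mu class, varied widely between mice of each group. Gsta1 ranged from 3.04 to 176 (median 17.1) in control, from 1.04 to 93.9 (median 10.3) at 1.5, from 4.08 to 449 (median 31.0) at 15 and from 8.36 to 49.5 (median 18.2) at 150 mg/kg bw/d. No comparison called either gene by limma (against control, adjusted p = 0.705, 0.760 and 0.990 for Gsta1, with unadjusted p from 0.263 to 0.967). Values above 50 were found in 2 control mice, 4 mice at 1.5, 3 at 15 and 0 at 150 mg/kg bw/d. The 8 mice with the most Gsta1 were, in the same order, the 8 mice with the most Gstm3. They are another set than the 8 libraries that stood apart and share 2 mice with it, mice 6 and 7 at 15 mg/kg bw/d. Mouse 7 at 15 mg/kg bw/d led with 449 for Gsta1 and 359 for Gstm3. Control mouse 8 followed with 176 and 201, and control mouse 9 with 141 and 147. In these 8 mice other genes of the families stood at an end of the ranking too, as the plot of Gstm3 and Gsta3 against Gsta1 shows in part.

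**Figure D4:**
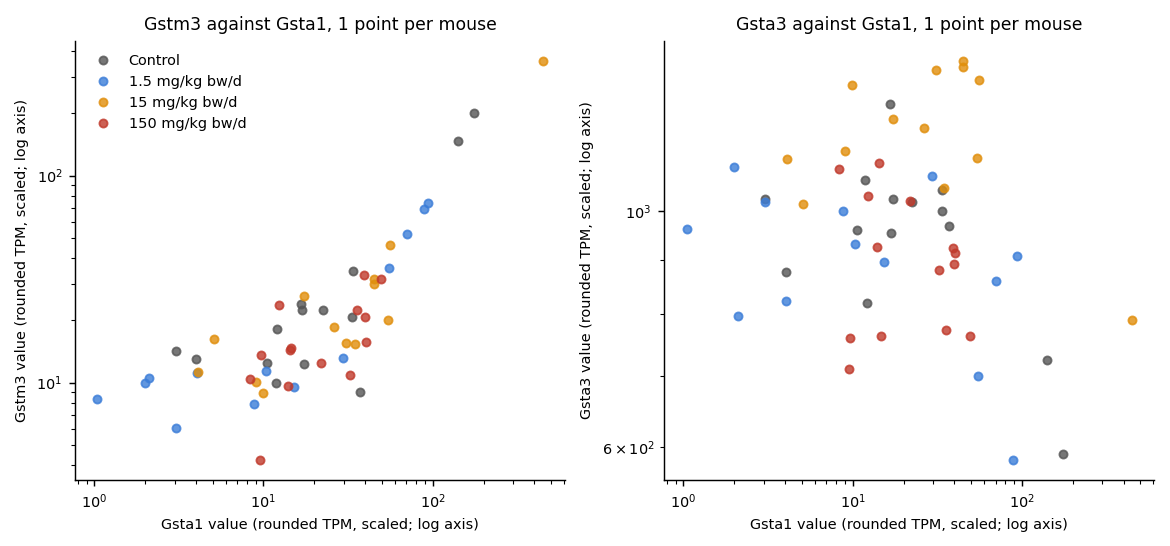
Gstm3 (left) and Gsta3 (right) against Gsta1 in each of the 54 mice, on log axes (TPM rounded and scaled by the authors), coloured by DINP dose. The 3 mice above 100 for Gsta1, 2 of them controls, were also the 3 highest for Gstm3, and had Gsta3 values of 591 to 789.

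Of the same 8 mice, 7 were among the 8 highest for Gsta13 and 6 for Gstm2. At the other end, 7 of the 8 were among the 8 lowest for each of the sulfotransferases Sult2a7 and Sult2a8 and for Ugt2a3, and 5 for Sult1b1, Ugt2b1 and Ugt3a2. The 3 mice with the most Gsta1 had Sult2a8 values of 12.4, 9.94 and 37.1, the lowest of all 54 mice, where the control median was 151. Marker sums of some other liver cells, but not of all, stood at an end of the ranking in these mice as well. The summed stellate cell markers (6 genes) were among the 8 highest in 7 of these mice. The cholangiocyte markers (5 genes, mostly Spp1) and the adipocyte markers (5 genes) were so in 6 each and the macrophage markers in 4. Of the 5 adipocyte markers only 1 had a mean of at least 1 over all mice, so that sum rests on low values. The sums of pericentral hepatocyte markers were among the 8 lowest in 6. Endothelial sums did not follow, with 0 of these mice among the 8 highest and 2 among the 8 lowest. For general hepatocyte markers these counts were 0 and 4, and for periportal markers 1 and 3. In mouse 7 at 15 mg/kg bw/d the stellate sum was 382 and the cholangiocyte sum 254, where the control medians were 161 and 21.3. Its pericentral sum was 1246, where the control median was 3041. The part of cell composition in these values was not tested, and in bulk tissue fewer cells of a type and less RNA per cell cannot be told apart. The 8 mice were picked by Gsta1, so the rankings are a description with no test, and genes that share reads can rank alike.

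Of the genes that supply the donors of conjugation, 3 were called against control. Ugdh, which makes UDP-glucuronic acid, had log2 fold changes of -0.22, -0.06 and -0.03 at the 3 doses (limma adjusted p = 0.503, 0.830 and 0.962). Of 7 tested genes of this supply, 1 was called, Pgm1 at 150 mg/kg bw/d (0.21 ± 0.05 SE, adjusted p = 0.0288). None of the 8 tested genes of PAPS supply was called by limma at any dose against control (1 of 8 had an unadjusted p under 0.05 at each dose). Papss2, which synthesises PAPS in the liver, had -0.07, 0.19 and 0.12 (limma adjusted p = 0.877, 0.332 and 0.721). Of the 10 tested glutathione genes, the glutathione-degrading enzyme Chac2 was higher at 15 mg/kg bw/d (0.68 ± 0.16 SE, adjusted p = 0.00266, and 0.37 with adjusted p = 0.145 without the 8 libraries) and the 5-oxoprolinase Oplah at 150 mg/kg bw/d (0.44 ± 0.10 SE, adjusted p = 0.00590). Gclc, which begins glutathione synthesis, had -0.10, -0.17 and 0.00 (limma adjusted p = 0.818, 0.404 and 0.999).

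Of 7 tested export pumps, Abcg2, which carries sulfate and glucuronide conjugates into bile, was higher at 150 mg/kg bw/d. It was at 41.8 to 74.3 (median 58.6) in control and at 56.9 to 95.5 (median 83.7) at this dose, with 10 of 14 treated mice above the control range (log2 fold change 0.46 ± 0.09 SE, adjusted p = 0.00121). No pump was called at the other doses by limma (0 of 7 had an unadjusted p under 0.05 at either).

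Of 14 tested regulators, Keap1 was lower at 2 doses. It was at 35.3 to 45.2 (median 42.7) in control, at 27.8 to 41.1 (median 34.5) at 1.5, at 24.3 to 36.2 (median 29.0) at 15 and at 36.5 to 43.7 (median 41.1) at 150 mg/kg bw/d. At 15 mg/kg bw/d 11 of 13 mice were below every control mouse. The log2 fold changes were -0.27 ± 0.06 (SE, adjusted p = 0.00574) and -0.47 ± 0.06 (SE, adjusted p = 6.98e-08) at the lower doses and -0.05 ± 0.05 (SE, adjusted p = 0.755) at the highest. Nfe2l2, the gene of NRF2, had -0.19, -0.21 and -0.08 (limma adjusted p = 0.488, 0.194 and 0.810). Rxra, the partner of many nuclear receptors, was higher at 15 mg/kg bw/d (0.43 ± 0.08 SE, adjusted p = 8.11e-05). Without the 8 libraries both Keap1 (-0.36, adjusted p = 0.000131) and Rxra (0.38, adjusted p = 0.00781) were still called at this dose. Ppara, the receptor that phthalate monoesters are known to activate, was higher at 150 mg/kg bw/d (0.58 ± 0.12 SE, adjusted p = 0.00187). Ahr had -0.12, 0.07 and -0.40 (limma adjusted p = 0.768, 0.775 and 0.0851), Nr1i2 had 0.01, -0.22 and 0.27 (0.985, 0.290 and 0.327) and Nr1i3 had 0.26, 0.34 and 0.37 (0.640, 0.283 and 0.394).

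Other measures moved with the middle dose group, in which 7.57% of all genes were called higher and 6.61% lower. Of 14 tested genes of the circadian clock and its outputs, 4 were higher at 15 mg/kg bw/d, Dbp (1.00), Usp2 (1.37), Per3 (0.75) and Nr1d2 (0.42), and 0 were lower. The summed clock values were 102 to 349 in control and 191 to 336 at this dose. Of 7 periportal hepatocyte markers all lay above 0 and 1, Hsd17b13, was called higher, with sums of 1345 to 2554 in control and 1741 to 2618 at this dose. Of 8 pericentral markers 6 lay above 0 and 1, Lect2, was called higher. Of 6 endothelial markers 0 lay above 0 and Pecam1 was called lower (-0.52 ± 0.11 SE, adjusted p = 0.000867). The 5 hepatocyte markers in the table, Alb, Apoa1, Ttr, Serpina1a and Fgb, were abundant in every library, with summed values of 23683 to 46028, and their Ttr was higher and Fgb lower at 15 mg/kg bw/d. Krt7, a defining cholangiocyte marker, had a median of 0 in every group. Without the 8 libraries Nr1d2 (adjusted p = 0.00771) and Per3 (adjusted p = 0.0487) of these genes were still called, while Dbp, Usp2, Hsd17b13, Lect2, Pecam1, Ttr and Fgb were not (adjusted p 0.0727 to 0.751). The labels give no batch, time of day or litter, and the part of these measures in the changes at 15 mg/kg bw/d was not tested.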

How the data were processed

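Liver RNA of 54 mice was measured as QuantSeq 3′ mRNA-Seq libraries. The authors aligned and quantified the reads with STAR, RSEM and Salmon on GRCm38, per the labels and the study's methods. The deposited values are a signal: TPM that was made whole by rounding and then scaled by 1 size factor per sample (steps of 0.764 to 1.11, deviation from whole multiples at most 6.66e-05). Whole-number sums were 948342 to 980641. The table does not keep sequencing depth, so that the sampling error of single values is unknown. Samples were grouped by their labels, and each is 1 mouse.

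The test was limma 3.58.1 (trend) under R 4.3.3 on log2(value + 1), which understates changes of low genes, for 11431 rows with a mean of at least 1, all 4 groups in 1 fit. p-values were adjusted by Benjamini-Hochberg over these rows. The design allowed for counts, and the form for TPM was followed. The script was tested on simulated data. Alternatives were other pseudocounts and filters, quantile normalization, array quality weights, a replicate block, 2 groups alone and leaving out each mouse. Leaving out 6 or 8 libraries that stood apart on the first principal component was added after the data were seen. The genes named are those called against control, the 3 most abundant genes of each family, and Gstt2 and Gstp3, which the study names, and a few others named after their values were seen. The genes and lists were chosen with earlier results of these data known. Positions are from GENCODE M21 (GRCm38), matched by symbol for 50 of 52 genes. Figures were drawn with matplotlib 3.10.9. Replicate numbers do not pair mice. 1 supporting gene list is not reported here.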

Additional observations from a re-analysis of the deposited data

How the results depend on the processing

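The counts of called UGT, SULT and GST genes against control were 2, 8 and 2 from the lowest to the highest dose, and 11, 3 and 13 for 15 against 150, 1.5 against 150 and 1.5 against 15 mg/kg bw/d. At 1.5 mg/kg bw/d the count was 1 with a pseudocount of 0.1, without a filter, with a minimum mean of 5 (which removes Ugt1a1), after quantile normalization, with the replicate block and with a log2 fold change beyond 0.5. With that fold change asked for, the counts were 3 at 15 mg/kg bw/d, 5 for 15 against 150 and 7 for 1.5 against 15 mg/kg bw/d. For 1.5 against 150 mg/kg bw/d the count was 1 without a filter and 5 with array quality weights, which added Gstm4 and Gstt3. Leaving out 1 mouse at a time gave 1 to 2, 7 to 10 and 2 to 3 genes against control, and 11 to 12, 1 to 4 and 11 to 16 between doses. The replicate numbers were not treated as pairs: over 79 pairs of same-numbered mice the mean correlation of deviations was -0.0025 (-0.359 to 0.243), with 12.7% above 0.1, and among the named genes and comparisons the block lost no call except that of Ugt1a1 at 1.5 mg/kg bw/d. Without the 6 libraries at 15 mg/kg bw/d that stood apart the counts were 4 at 15 mg/kg bw/d and 3 for 1.5 against 15. In that fit 2 genes were higher and 1 lower than control at 1.5 and at 150 mg/kg bw/d, with Gstk1 and Ugt1a1 as the additional ones. Without all 8 such libraries the counts were 4 at 15 and 4 at 150 mg/kg bw/d and 4 for 1.5 against 15 mg/kg bw/d. Both choices were made after seeing the data. Changes of direction were found only in genes that were not called. Without the 6 and the 8 libraries, the log2 fold changes at 15 mg/kg bw/d were -0.17 and -0.15 for Gstp3, -0.23 and -0.20 for Gstm1 and 0.38 and 0.38 for Sult1d1, and without the 8 they were 0.036 for Ugt3a2 and 0.034 for Gstm7 at 150 mg/kg bw/d. Gstm1 had log2 fold changes of -0.14 (quantile normalization) and -0.053 (array quality weights) at 15 mg/kg bw/d, and -0.14 (quantile normalization) at 150 mg/kg bw/d. With array quality weights Gstm7 had 0.014 at 150, Sult1d1 0.11 at 15 and Ugt1a8 -0.020 at 1.5 mg/kg bw/d. Leaving out 1 mouse gave -0.055 to 0.043 for Gstm1 at 15 and -0.014 to 0.054 at 150, -0.046 to 0.044 for Gstm7 at 150, -0.11 to 0.014 for Gstp1 at 150, -0.080 to 0.029 for Sult1d1 at 1.5 and -0.072 to 0.11 at 15, -0.031 to 0.021 for Ugt1a8 at 1.5 and -0.056 to 0.023 for Ugt3a2 at 150 mg/kg bw/d. The causes were not tested.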
